A study of Mus musculus with 40 samples.

Results

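B cell-biased lymphoid progenitors (BLPs) and haematopoietic stem cells (HSCs) of control mice stand at the far and the near end of the path that the study followed through the bone marrow. The comparison rests on the 5 control BLP libraries and the 5 control HSC libraries, 10 of 40 in the series, taken by their column names and paired by the mouse number in each name. Both populations came from the femurs and tibiae of the same 5 control mice, aged 46 to 51 days, on a mixed C57BL6/129Ola background. These mice carried Mbd3 Flox/Flox, that is both copies of Mbd3 intact between recombination sites. BLPs were sorted as cells without lineage markers and without B220 that were Sca-1+, c-Kit+ and Flt3hi and carried IL-7Ra and Ly6D. HSCs were sorted as CD45+ CD150+ CD48- EPCR+ cells. The 5 Mbd3del mice (Mbd3 Del/Del, aged 46 to 51 days, on the same background and sorted with the same gates) enter 1 comparison, and the lymphoid-primed multipotent progenitors (LMPPs) and all-lymphoid progenitors (ALPs) of the control mice are given as levels between the ends. What deleted Mbd3, and whether the control mice carried the same agent, could not be read from the sources used here.

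HSCs are rare, mostly resting cells that renew themselves and can give rise to every blood lineage. On the way to B cells their descendants first lose the megakaryocyte and erythroid options, then gain Flt3 and the interleukin 7 receptor, and begin to express recombination genes. The transcription factors Ikaros, PU.1 and E2A open lymphoid programs, and EBF1 with PAX5 then switch on the B cell genes proper, among them the parts of the pre-B cell receptor. BLPs carry the surface protein Ly6D, which marks lymphoid progenitors that mostly make B cells.

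Smart-seq2, which copies whole transcripts into cDNA and carries no molecular identifiers, was used on pools of sorted cells. The sample labels give 100 cells for a BLP pool and 150 for an HSC pool, and the series text has these 2 numbers exchanged. Cell number and gate differed with the population and cannot be told apart from it. A bulk library also cannot tell fewer expressing cells from less RNA per cell. BLP libraries held 3593226 to 8368790 gene counts and HSC libraries 3219784 to 7189940, and the numbers of detected genes were 12861 to 14332 and 13395 to 15389 in BLPs and HSCs. The 4 library measures (total, detected genes, mitochondrial share, share of the 10 most counted genes) gave two-sided exact paired permutation p-values of 0.375 to 1, where 5 pairs cannot go below 0.0625.

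Levels are in CPM, read counts scaled by the gene counts of each library to one common total. The mouse numbers were checked with sex-linked transcripts. Xist, which coats the silenced X chromosome, and Ddx3y, a gene of the Y chromosome, matched between the BLP and the HSC library of every mouse. In 2 of 5 mice both libraries went against the labelled sex. Mouse10372, labelled female, had 267 CPM of Ddx3y in BLPs and 194 in HSCs, and mouse10381, labelled male, had 291 CPM of Xist in BLPs and 228 in HSCs. The counts over all genes, and those of several lists, are therefore also given without these 2 mice.

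Of 11195 genes tested within mouse, 1642 (14.7%) differed at an adjusted p below 0.05, by edgeR's quasi-likelihood test with Benjamini-Hochberg adjustment over all of them. BLPs were higher in 719 genes (6.42%) and lower in 923 (8.24%), and 1608 of the 1642 had one direction in all 5 mice. Tested against a change of 2-fold, 956 genes (8.54%) passed, 384 higher (3.43%) and 572 lower (5.11%) in BLPs. The libraries of BLPs and HSCs did not overlap in 1887 genes (16.9%), of which 1403 were among the called ones. The median log2 fold change of BLPs over HSCs across all tested genes was -0.02. Without mouse10372 and mouse10381 the fit called 413 genes higher and 498 lower, and without mouse10357 and mouse10358 it called 278 and 345. DESeq2 on the 5 pairs called 1210 higher and 1643 lower. All adjusted p-values below come from the edgeR fit, a fold change is given as log2 of BLPs over HSCs with its standard error, and values of 5 libraries are listed by mouse as mouse10357, mouse10358, mouse10372, mouse10380 and mouse10381.

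**Figure D1:**
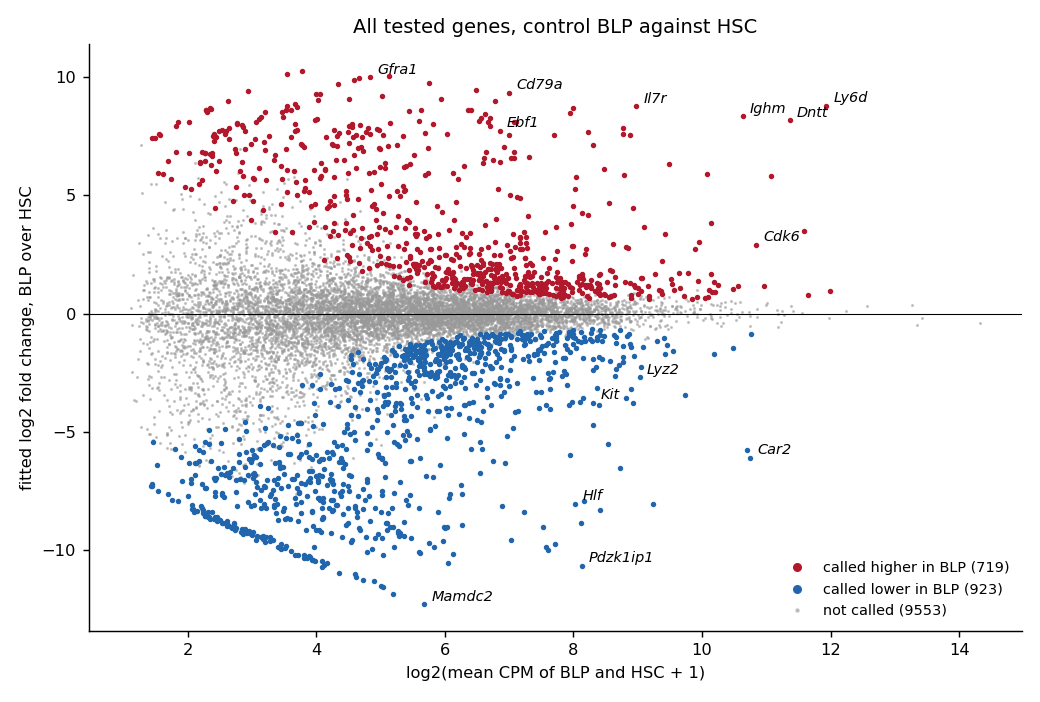
Fitted log2 fold change of control BLPs over control HSCs (vertical) against the log2 of the mean CPM of both populations plus 1 (horizontal), 1 point per tested gene. The 719 genes called higher in BLPs lie above the line and the 923 called lower below it. The narrow slanting band at the lower left holds genes with 0 counts in all BLP libraries, whose fitted values depend on the prior count and are not measured folds.

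Ly6d (chr15:74762056-74763620 on GRCm38, minus strand), which encodes the surface protein that defines BLPs, had 9620, 6175, 10772, 3646 and 8713 CPM in BLPs, against 37.3, 15.4, 28.3, 11.6 and 8.21 in HSCs. Every BLP library lay far above every HSC library, and the log2 fold change was 8.77 ± 0.41 (adjusted p = 1.64e-06). Il7r (chr15:9505788-9530176, minus strand), the receptor chain for interleukin 7, the main growth signal of early B cells, had 875, 866, 1555, 874 and 854 CPM in BLPs and 3.59, 2.66, 3.11, 1.96 and 1.11 in HSCs. The BLP values of 4 mice lie close together and that of mouse10372 stands above them. The log2 fold change of Il7r was 8.75 ± 0.34 (adjusted p = 4.01e-07), and that of Flt3, a receptor tyrosine kinase of lymphoid-primed cells, was 5.26 ± 0.45 (adjusted p = 4.92e-05).

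On the HSC side, Procr (chr2:155751117-155755471, plus strand) encodes EPCR, the protein C receptor used to sort these cells. It had 0.153, 0, 0.148, 0.128 and 0.835 CPM in BLPs and 227, 84.4, 125, 77.1 and 116 in HSCs, a log2 fold change of -9.07 ± 0.67 (adjusted p = 2e-05). Slamf1, which encodes CD150, averaged 1.69 ± 3.06 CPM in BLPs and 131 ± 20 in HSCs (SD, n = 5 each, adjusted p = 0.00158). Cd48, whose protein HSCs were sorted to lack, averaged 413 ± 86.9 CPM in BLPs and 2.65 ± 2.03 in HSCs (adjusted p = 7.62e-06). These 6 transcripts were all higher in the population whose gate requires the protein or, for Cd48, lower in the one whose gate leaves it out.

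Kit and Ly6a were lower in BLPs although the BLP gate requires both proteins. Kit (chr5:75574916-75656722, plus strand), the receptor for stem cell factor, had 77.5, 66.1, 33.5, 24.4 and 22.5 CPM in BLPs and 653, 558, 616, 418 and 694 in HSCs, with no overlap and a log2 fold change of -3.78 ± 0.30 (adjusted p = 3.03e-05). Ly6a, which encodes Sca-1, averaged 103 ± 53.8 CPM in BLPs and 364 ± 66.1 in HSCs (log2 fold change -1.86 ± 0.25, adjusted p = 0.000933), and its reads can be split with near-identical Ly6 copies. Ptprc, which encodes CD45, had 353 to 1090 CPM in BLPs and 314 to 435 in HSCs, and did not pass the test (log2 fold change 0.65 ± 0.24, adjusted p = 0.103).

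**Figure D2:**
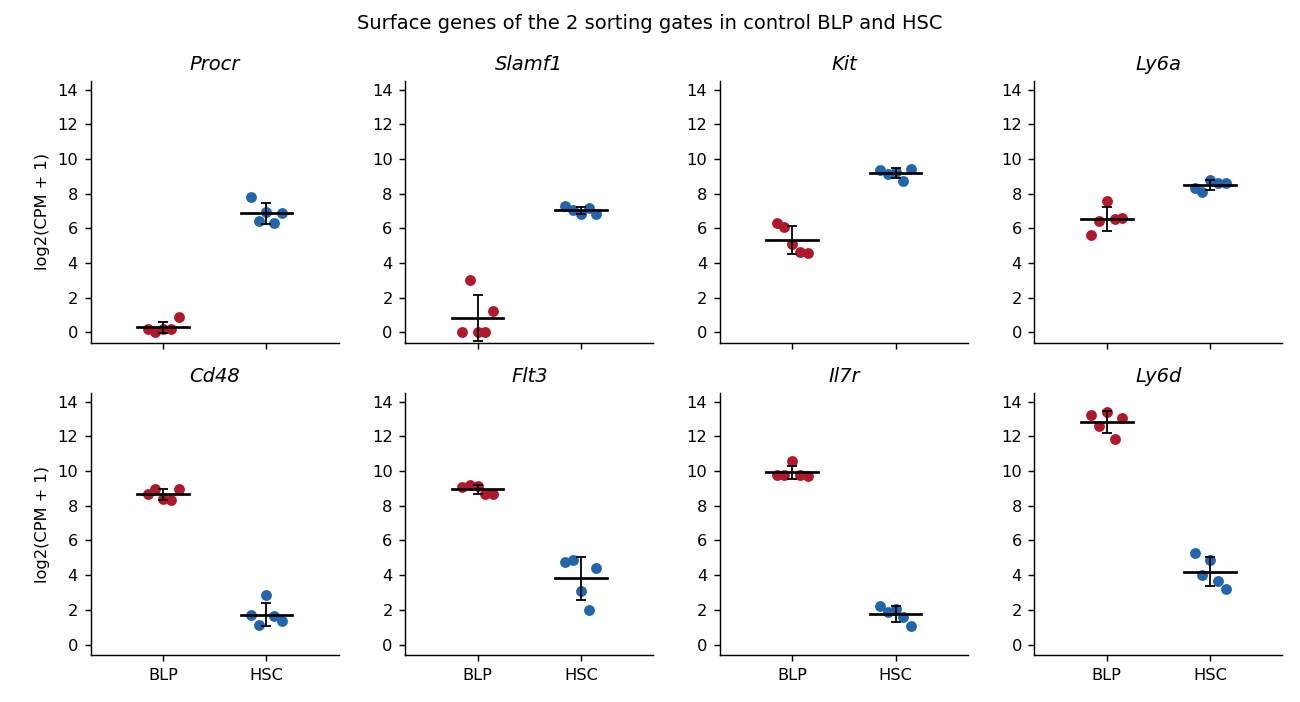
log2(CPM + 1) of 8 surface genes of the 2 gates, BLPs (red) left and HSCs (blue) right, 1 point per control mouse, with the mean (bar) and SD (whisker) of 5 libraries. Procr, Slamf1, Kit and Ly6a lie lower in BLPs without overlap, and Cd48, Flt3, Il7r and Ly6d lie higher without overlap.

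Sums of marker genes were compared between the populations. The 8 HSC markers summed to 6.88 to 25.6 CPM in BLP libraries and 1471 to 2127 in HSC libraries. The 8 BLP markers summed to 11303 to 20168 CPM in BLPs and 36.8 to 98 in HSCs. These sets include genes of proteins used for sorting, Procr and Slamf1 for HSCs and Ly6d, Il7r and Flt3 for BLPs. Ly6d, with the levels given above, made up a large part of the BLP sum. The sums were therefore partly set by the gates and give no independent check of identity. Among markers of other cells, Ms4a1 (mature B cells), Cd3e (T cells), Ncr1 (NK cells), Adgre1 and C1qa (macrophages) and Lepr (stroma) had 0 counts in all 10 libraries. A few other-cell markers moved with the population. The 6 neutrophil and monocyte markers summed to 96.3 to 169.9 CPM in BLPs and 819.8 to 1088 in HSCs, with Elane at 0 in BLPs. The 6 stromal and endothelial markers summed to 6.57 to 21.2 CPM in BLPs and 107.8 to 225 in HSCs, mostly through Emcn, which HSCs are known to express. The 5 markers of mature B and plasma cells summed to 32.7 to 153 CPM in BLPs and 0.443 to 18.4 in HSCs. The 4 dendritic cell markers summed to 172 to 541 CPM in BLPs and 61.7 to 137 in HSCs. The 4 T cell markers summed to 294 to 656 CPM in BLPs and 23.7 to 47.4 in HSCs, mostly through Lck, and the 3 NK cell markers to 477 to 694 CPM in BLPs and 24.3 to 82.0 in HSCs, mostly through Nkg7. The 5 megakaryocyte and platelet markers summed to 0.297 to 5.57 CPM in BLPs and 60.3 to 106 in HSCs, with Pf4 and Ppbp at 0 in BLPs. The 5 erythroid markers (0.148 to 3.83 CPM in BLPs and 4.87 to 10.04 in HSCs) and the 4 macrophage markers (11.1 to 34.8 CPM in BLPs and 5.02 to 40.5 in HSCs) were low at both ends. The part of such cells in the results below was not tested.

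The stem cell program was lower in BLPs nearly throughout. Of 29 listed regulators of stem cells 26 were tested, and 19 fell in BLPs and none rose, with a median log2 fold change of -3.43 over the 26 against -0.02 over all genes. Without mouse10357 and mouse10358, 14 of 27 were called lower and none higher, with a median of -3.31. Hoxb5 was among those not called in that fit. Hlf (chr11:90336536-90390895, minus strand), a transcription factor that keeps stem cells resting, had 5.35, 0.239, 1.78, 0.383 and 4.73 CPM in BLPs and 582, 467, 515, 365 and 655 in HSCs (log2 fold change -8.03 ± 0.61, adjusted p = 2.45e-05). Mecom, which encodes the self-renewal factor EVI1, averaged 1.69 ± 2.97 CPM in BLPs and 233 ± 77.7 in HSCs (adjusted p = 0.000398). Gata2, a zinc finger factor of stem and early erythroid cells, averaged 0.271 ± 0.327 CPM in BLPs and 129 ± 40.5 in HSCs (adjusted p = 9.27e-06). Hoxb5, a homeobox gene known as a marker of long-term stem cells, had 0 counts in the 5 BLP libraries and 13.1 to 27.5 CPM in HSCs, at least 208-fold lower in BLPs against a floor of 3 counts over the group.

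Other regulators fell less and kept measurable levels. Lmo2, the bridge protein of the stem cell factor complex, averaged 63.9 ± 7.43 CPM in BLPs and 841 ± 311 in HSCs (log2 fold change -3.56 ± 0.25, adjusted p = 1.59e-05). Meis1, a homeobox partner of Hox proteins, averaged 143 ± 49 CPM in BLPs and 556 ± 132 in HSCs (log2 fold change -1.91 ± 0.22, adjusted p = 0.000391). Runx1, a factor of stem and lymphoid cells alike, averaged 116 ± 17 CPM in BLPs and 170 ± 30.5 in HSCs and did not pass the test (adjusted p = 0.256). Erg, an ETS factor, lay close to the threshold at a log2 fold change of -1.41 ± 0.42 (adjusted p = 0.0507). Hoxa9, a Hox gene of multipotent cells, did not pass either, at -0.81 ± 0.27 (adjusted p = 0.076).

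Surface and signalling genes of stem cells behaved alike. Of 32 listed, 29 were tested, 23 fell in BLPs and none rose (median log2 fold change -3.78). The 23 include Procr and Slamf1, whose proteins the HSC gate requires. The angiopoietin receptor Tek had 2 counts over the 5 BLP libraries and 71.7 to 119.8 CPM in HSCs, a ratio of HSC to BLP counts of 1612 (95% interval 446 to 13320, counting error only). Esam, an endothelial adhesion molecule used to mark HSCs, had 3 counts in BLPs and averaged 106 ± 43.3 CPM in HSCs, a ratio of 1153 (394 to 5596). Abcg2, the efflux pump behind the dye-excluding side population, fell to 40.1 ± 23.5 CPM in BLPs, against 509 ± 143 in HSCs (log2 fold change -3.75 ± 0.34, adjusted p = 7.46e-05).

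Most tested genes of the megakaryocyte and platelet lineage fell: 12 of 18 tested members (of 24 listed) were lower in BLPs and 1, Mef2c, was higher. Mef2c also serves lymphoid priming. Pf4, the platelet factor 4 chemokine, had 0 counts in BLPs and 41.7, 30.4, 23, 34.1 and 35.6 CPM in HSCs, at least 371-fold lower in BLPs. Vwf, which encodes von Willebrand factor and marks platelet-biased stem cells, had 2 counts in BLPs and 25.9 to 77.2 CPM in HSCs. The platelet glycoprotein chain Itgb3 averaged 0.525 ± 0.569 CPM in BLPs and 19.2 ± 11.9 in HSCs (adjusted p = 0.00655). Without mouse10357 and mouse10358, 5 of 18 were called lower in this list.

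All 4 tested members of the 18 erythroid genes were called, 3 lower and 1 higher in BLPs, and the count filter dropped the other 14. Epor and Hbb-bt were kept through their HSC libraries, so the share called does not speak for the whole list. Without mouse10372 and mouse10381, 1 was called lower and 1 higher. Car2, a carbonic anhydrase, had 46, 58.1, 41.1, 61.8 and 33.1 CPM in BLPs and 3765, 3026, 3070, 3851 and 3267 in HSCs (log2 fold change -6.08 ± 0.21, adjusted p = 2.5e-07). The erythropoietin receptor Epor had 0 counts in BLPs and 1.86 to 16 CPM in HSCs, at least 84.9-fold lower in BLPs. Hbb-bt, a beta globin gene that shares sequence with Hbb-bs, fell to 0.521 ± 0.689 CPM in BLPs, against 17.5 ± 7.34 in HSCs (adjusted p = 0.0259). The calls of Epor and Hbb-bt each rest on single mice: leaving out mouse10357, mouse10358 or mouse10381 for Epor, or any mouse but mouse10357 for Hbb-bt, gave adjusted p-values of up to 0.0756 and 0.0718. Tfrc, the transferrin receptor, which dividing cells of many types use for iron uptake, went the other way, with 926 ± 336 CPM in BLPs and 45 ± 17.9 in HSCs (log2 fold change 4.47 ± 0.38, adjusted p = 4.68e-05).

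The neutrophil and monocyte genes split. Of 25 listed, 11 were tested, 3 rose (Mpo, Ctsg and Ly6c2, the last uncertain because of similar copies) and 3 fell (Prtn3, Lyz2 and Csf3r). Mpo, myeloperoxidase, had 124, 240.4, 146, 176 and 77.4 CPM in BLPs and 1.4, 1.48, 1.24, 3.39 and 2.78 in HSCs (log2 fold change 6.24 ± 0.44, adjusted p = 1.53e-05). Prtn3, proteinase 3, which is stored in the same granules, averaged 3.22 ± 2.71 CPM in BLPs and 209.8 ± 118 in HSCs (log2 fold change -6.24 ± 0.75, adjusted p = 0.000442). Lyz2, lysozyme, averaged 134 ± 27.1 CPM in BLPs and 911 ± 109.7 in HSCs (log2 fold change -2.69 ± 0.20, adjusted p = 1.79e-05). Ctsg and Csf3r were each not called in 4 of the 5 fits that left out a mouse, with adjusted p-values of up to 0.0981 and 0.0941. S100a8, a neutrophil calprotectin chain, did not pass (adjusted p = 0.0621), and its HSC values were 129.9, 17.9, 15.8, 8.39 and 5.01 CPM, with mouse10357 far above the rest.

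Among genes with at least 20 CPM in HSCs whose libraries did not overlap, the 12 with the largest fitted fall were Mamdc2, Nupr1, Fam110c, Gdf3, Fam171a1, Aldh1a1, Sox6, Tmem246, Snrpn, Pdzk1ip1, Pf4 and Trim6. All but Pdzk1ip1 had 0 counts in the 5 BLP libraries, so their folds are lower bounds of 371 (Pf4) to 1098 (Mamdc2). Their rank depends on the prior count of the fit. Tek above and Grb10 below, with a few BLP counts, had count ratios above these bounds. Pdzk1ip1, a small membrane protein gene used elsewhere to label stem cells, had 10 counts in BLPs and 481 to 708 CPM in HSCs. Aldh1a1, a retinal dehydrogenase, had 59.9, 45.5, 73.9, 30 and 46.3 CPM in HSCs, at least 534-fold lower in BLPs. It is 1 of 10 detoxification and efflux genes that fell in BLPs, of 28 tested of 30, while Mgst2, a microsomal glutathione transferase, alone rose (adjusted p = 0.00112). Sult1a1, a sulfotransferase, averaged 0.502 ± 0.821 CPM in BLPs and 379 ± 162 in HSCs (adjusted p = 3.25e-05).

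Imprinted genes, which are read from 1 parental copy and many of which restrain growth, were lower in BLPs in part. Of 29 listed, 15 were tested and 8 fell in BLPs (Cdkn1c, Grb10, H19, Meg3, Ndn, Phlda2, Sgce and Snrpn), with none higher and a median log2 fold change of -2.83. Grb10, an adaptor that dampens growth factor signals, had 3 counts over the BLP libraries and 134, 173, 134, 108 and 143 CPM in HSCs, a ratio of HSC to BLP counts of 1549 (95% interval 530 to 7516). Snrpn, a splicing factor gene of the Prader-Willi region, had 0 counts in BLPs and 26.7 to 72.1 CPM in HSCs, at least 438-fold lower in BLPs. H19, a long noncoding RNA, was low at both ends, with 2 counts in BLPs and 6.05 ± 2.81 CPM in HSCs.

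Part of the cell cycle genes rose in BLPs. Of 40 S phase and replication genes, all tested, 17 rose and none fell, and of 30 G2 and mitosis genes, all tested, 11 rose and none fell, with medians of 1.61 and 2.77 on the log2 scale. Mcm2, a subunit of the replicative helicase, averaged 186 ± 43.6 CPM in BLPs and 61.3 ± 13.8 in HSCs (adjusted p = 0.00197). Rrm2, the small subunit of ribonucleotide reductase, averaged 229 ± 89.9 CPM in BLPs and 42.4 ± 33.9 in HSCs (adjusted p = 0.00926). Mki67, the proliferation antigen, had 196, 139, 169, 29 and 102 CPM in BLPs and 19.4, 0.738, 23.9, 1.61 and 14.3 in HSCs (adjusted p = 0.00202). The lowest BLP library, of mouse10380, stood just above the highest HSC library. Without mouse10357 and mouse10358, 3 of 40 S phase genes and 4 of 30 mitosis genes were called, with medians of 1.27 and 2.08. Without mouse10372 and mouse10381 the counts were 11 and 7.

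The regulators of the G1 phase went in both directions. Of 13 tested genes of 15 listed, Cdk4, Cdk6 and Cdkn1a rose and Cdkn1c, Cdkn2d and Rbl2 fell. Cdk6, a kinase that HSCs are known to hold low while at rest, had 2586, 2815, 4305, 2634 and 3738 CPM in BLPs and 437, 506, 525, 401 and 404 in HSCs (log2 fold change 2.89 ± 0.22, adjusted p = 2.06e-05). Cdkn1c, which encodes the inhibitor p57 of resting stem cells, had 2 counts in BLPs and 51.1, 27.5, 13.7, 20.5 and 30.5 CPM in HSCs, a ratio of HSC to BLP counts of 488 (135 to 4035). Cdkn1a, which encodes the related inhibitor p21, moved the opposite way, with 74.9, 95.2, 56.9, 182 and 86.3 CPM in BLPs and 0.998, 0, 1.24, 6.78 and 3.89 in HSCs (log2 fold change 5.83 ± 0.74, adjusted p = 0.000609). It is also a p53 target. Of 15 tested p53 targets Cdkn1a and Trp53inp1 rose (13.3%, against 6.42% of all tested genes) and Plk2 fell (6.67%, against 8.24%). Cdkn2d and Rbl2 were each not called in 3 of the 5 fits that left out a mouse, with adjusted p-values of up to 0.0646 and 0.091. Cdkn1b, which encodes p27, did not pass (log2 fold change -0.82 ± 0.26, adjusted p = 0.0654).

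Members of the Myc family also went in both directions. Mycn averaged 14.7 ± 7.76 CPM in BLPs and 256 ± 72.2 in HSCs (log2 fold change -4.15 ± 0.36, adjusted p = 5.25e-05), and Mycl averaged 44.9 ± 27 CPM in BLPs and 0.189 ± 0.127 in HSCs (log2 fold change 7.86 ± 0.74, adjusted p = 8.74e-05). Myc itself had 327 to 924 CPM in BLPs and 286 to 439 in HSCs and did not pass (adjusted p = 0.102). Of 27 nucleotide synthesis genes 6 rose and none fell. Of 37 respiratory chain and TCA cycle genes 2 rose (Cox5a and Fh1), 5.41% against the background of 6.42%. Of 23 tested glycolysis and lactate genes 5 fell (21.7%, against 8.24% of all tested genes), among them Ldhb, a lactate dehydrogenase chain (log2 fold change -2.64 ± 0.27, adjusted p = 0.000162). Pdk1 alone rose (4.35%, against 6.42%, adjusted p = 0.0475). Without mouse10357 and mouse10358, 1 nucleotide synthesis gene was called higher and 2 glycolysis genes lower, and without mouse10372 and mouse10381 these counts were 3 and 2, with none of the respiratory chain and TCA cycle genes called. Pdk1 was not called without any 1 of the 5 mice (adjusted p of 0.0726 to 0.0919), and Cox5a and Fh1 were each lost in 3 of these fits (adjusted p of up to 0.0786 and 0.0901).

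**Figure D3:**
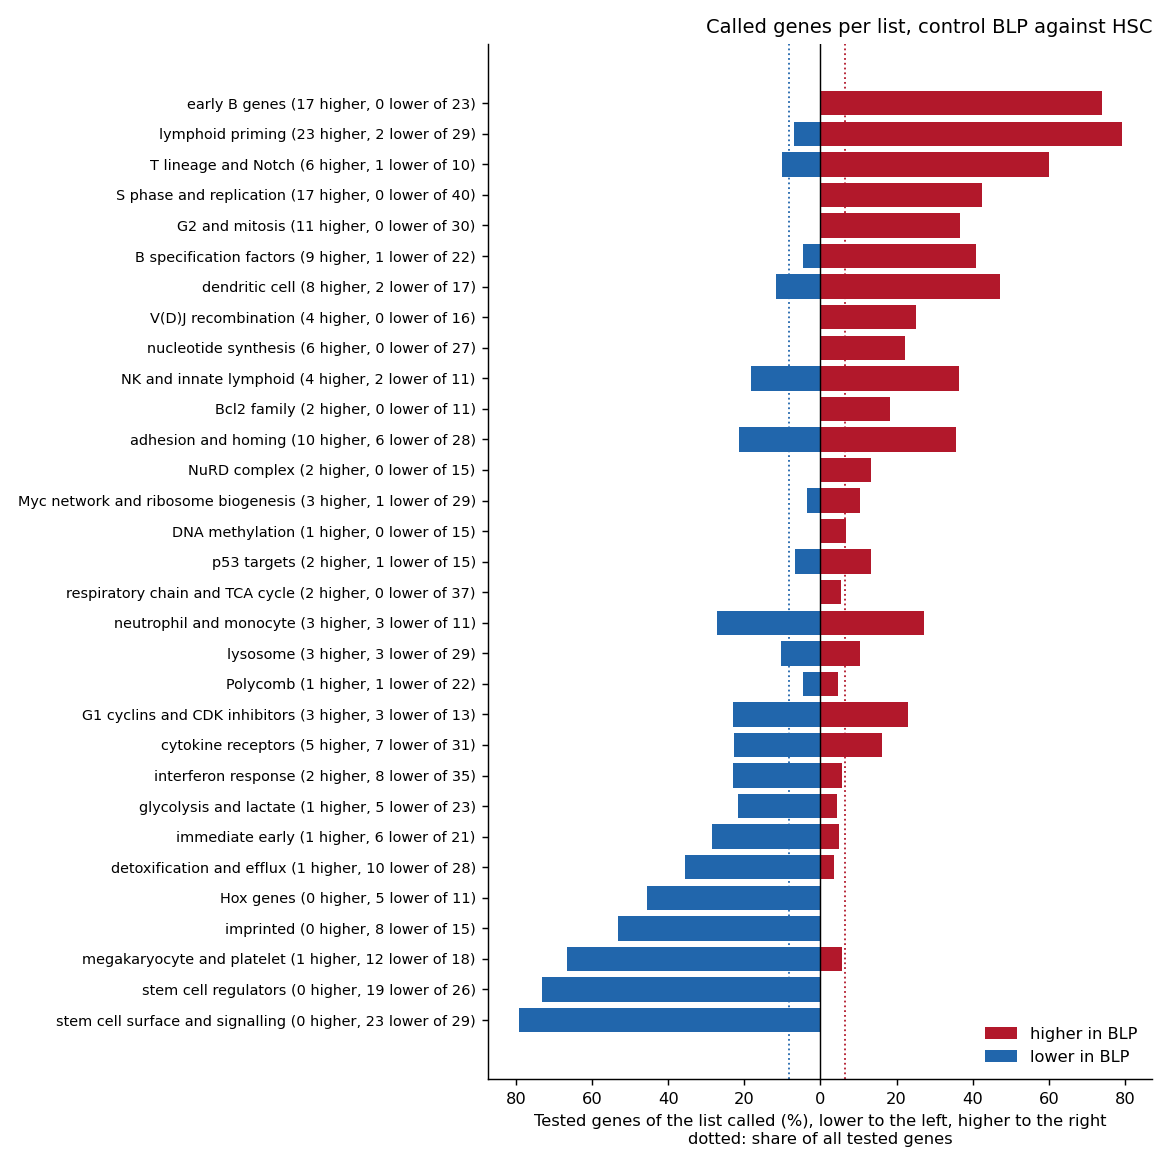
Share of the tested genes of each list that was called higher (red, to the right) or lower (blue, to the left) in control BLPs than in HSCs, for the lists with at least 10 tested genes. Dotted lines mark the shares over all tested genes, 6.42% higher and 8.24% lower. Early B, lymphoid priming, S phase and mitosis lists lie to the right, and stem cell, megakaryocyte and imprinted lists to the left.

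Most lymphoid priming genes rose. All 29 listed were tested, 23 rose and 2 fell (Ltb and Socs2), with a median log2 fold change of 2.87. The 23 include Flt3, Il7r and Ly6d, whose proteins the BLP gate requires, so the count was partly set by the gate. Dntt (chr19:41029275-41059525, plus strand) encodes terminal transferase, which adds bases at immunoglobulin gene joints. It had 4521, 5653, 6315, 5332 and 4458 CPM in BLPs and 27.3, 17, 23, 16.6 and 15.2 in HSCs (log2 fold change 8.16 ± 0.26, adjusted p = 2.5e-07). Ighm, the constant region of the mu heavy chain, had 3883, 4316, 3139, 2575 and 1935 CPM in BLPs and 5.98 to 15.5 in HSCs (log2 fold change 8.32 ± 0.27, adjusted p = 2.5e-07). Its transcripts can start before any gene joining, and counts do not tell joined from unjoined ones.

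Satb1, a chromatin organiser of lymphoid cells, averaged 486 ± 153 CPM in BLPs and 23.6 ± 10.9 in HSCs (adjusted p = 3.33e-05). Ltb, the membrane partner of lymphotoxin, averaged 52.9 ± 42 CPM in BLPs and 510.3 ± 139 in HSCs (log2 fold change -3.58 ± 0.46, adjusted p = 0.000624). The chemokine receptors Ccr7 and Ccr9, which guide cells to lymphoid organs and to the thymus, rose to 85.1 ± 28.4 and 49.9 ± 23.4 CPM in BLPs, against 0.226 ± 0.164 and 0.289 ± 0.212 in HSCs. Without mouse10357 and mouse10358, 15 of 28 priming genes were called higher. Socs2 was not called without mouse10357, mouse10358 or mouse10372 (adjusted p of up to 0.0861).

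In the machinery that joins V, D and J segments, 17 genes were listed and 16 tested. Of these Rag1, Rag2, Dntt and Xrcc6 rose, none fell and 12 did not pass. Rag1 and Rag2 (chr2:101638282-101649501, minus strand, and chr2:101624718-101632529, plus strand) encode the 2 chains of the recombinase and are neighbours. Rag1 had 217, 379, 153, 181 and 161 CPM in BLPs and 0.2, 0.443, 0.621, 0.714 and 0.278 in HSCs (log2 fold change 8.96 ± 0.43, adjusted p = 1.94e-06). Rag2 had 422, 475, 536, 525 and 504 CPM in BLPs and 1.4, 1.03, 2.8, 1.78 and 0.835 in HSCs (log2 fold change 8.47 ± 0.34, adjusted p = 5.28e-07). Xrcc6, the Ku70 end-joining protein that most cells use, averaged 1234 ± 186 CPM in BLPs and 136 ± 52 in HSCs (log2 fold change 3.34 ± 0.24, adjusted p = 1.7e-05).

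Among 22 tested B specification factors (of 25 listed) 9 rose and 1 fell, with a median log2 fold change of 1.06. Ebf1 (chr11:44617317-45008091, plus strand), the factor that commits cells to the B lineage, had 193, 244, 224, 202 and 279 CPM in BLPs and 1.2, 0.591, 1.24, 0.714 and 2.36 in HSCs (log2 fold change 7.71 ± 0.35, adjusted p = 1.23e-06). The 5 BLP libraries were close to each other. Irf8, an interferon regulatory factor of B and dendritic cells, averaged 625 ± 189.9 CPM in BLPs and 5.64 ± 4.65 in HSCs (adjusted p = 2.55e-06). Ikzf1, which encodes Ikaros, changed by less, with 581 ± 84.5 CPM in BLPs and 176 ± 45 in HSCs (log2 fold change 1.84 ± 0.22, adjusted p = 0.000404). Its relative Ikzf2, which encodes Helios, was the 1 that fell, with 15.7 ± 6.05 CPM in BLPs and 126 ± 35.4 in HSCs (log2 fold change -2.93 ± 0.38, adjusted p = 0.000691). Tcf3, which encodes E2A, did not pass (log2 fold change 0.88 ± 0.48, adjusted p = 0.288), and neither did Bcl11a (0.58 ± 0.19, adjusted p = 0.0795) or Foxo1 (0.92 ± 0.42, adjusted p = 0.198). Without mouse10357 and mouse10358, 4 of 22 factors were called higher, and without mouse10372 and mouse10381, 6 of 23.

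The early B genes had a median log2 fold change of 6.98. Of 30 listed, 23 were tested, 17 rose and none fell. The count filter dropped the other 7, and members near 0 in HSCs were tested only through their BLP libraries. Blnk, the adaptor of the pre-B cell receptor, had 1009, 889, 586, 869 and 992 CPM in BLPs and 3.79, 1.77, 1.86, 12.3 and 4.45 in HSCs (log2 fold change 7.85 ± 0.45, adjusted p = 4.15e-06). Blk, a Src family kinase of B cells, had 126, 196, 93.7, 313 and 160.0 CPM in BLPs and 0.139 to 0.535 CPM in the 4 HSC libraries with a count (log2 fold change 9.45 ± 0.54, adjusted p = 4.15e-06). Without mouse10372 and mouse10381, 16 of 24 were called higher, and without mouse10357 and mouse10358, 10 of 22.

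Part of the early B genes differed widely among the 5 BLP libraries. Cd79a (chr7:24897381-24902197, plus strand), a signalling chain of the B cell receptor, had 498, 485, 49.1, 139 and 95.2 CPM in BLPs and 0.148 to 0.798 in HSCs (log2 fold change 9.31 ± 0.49, adjusted p = 2.72e-06). Vpreb3, a chaperone of the pre-B cell receptor, had 413, 177, 48.9, 75.5 and 118 CPM in BLPs and 0 to 1.62 in HSCs (adjusted p = 4.4e-05). Igll1, which encodes the surrogate light chain part lambda5, had 561, 133, 2.22, 0.256 and 32.6 CPM in BLPs and 0 to 0.443 in HSCs, and was too low in some BLP libraries to be tested.

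The libraries of mouse10357 and mouse10358 were high for further genes of this kind. Pax5, the factor that locks in B identity, had 19.7, 15.5, 1.78, 4.98 and 1.95 CPM in BLPs and 1 count over the 5 HSC libraries. Its adjusted p was 0.00608, and it was not called without mouse10357 (adjusted p = 0.0779). Vpreb1, the other part of the surrogate light chain, had 143, 57, 5.93, 7.92 and 2.5 CPM in BLPs and 0 to 1.25 in HSCs (adjusted p = 0.015), and was not called without mouse10357 or without mouse10358 (adjusted p of up to 0.0842). Its reads can be shared with the near copy Vpreb2, which had 63.5, 69.9, 28.2, 27 and 42.3 CPM in BLPs and 1 count in HSCs. Ccnd3, the D cyclin of pre-B cells, had 357, 252, 31.4, 85.1 and 65.1 CPM in BLPs and 33.9 to 96.4 in HSCs, and did not pass (adjusted p = 0.265). Mouse10357 and mouse10358 are thus the 2 highest BLP libraries for Cd79a, Vpreb3, Igll1, Pax5, Vpreb1 and Ccnd3. They are also the 2 highest for Vpreb2, Rag1, Ighm and Kit, so the pattern is not confined to B lineage genes. Ebf1, Rag2 and Blk had other libraries on top. All these genes were chosen here after their values were seen.

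**Figure D4:**
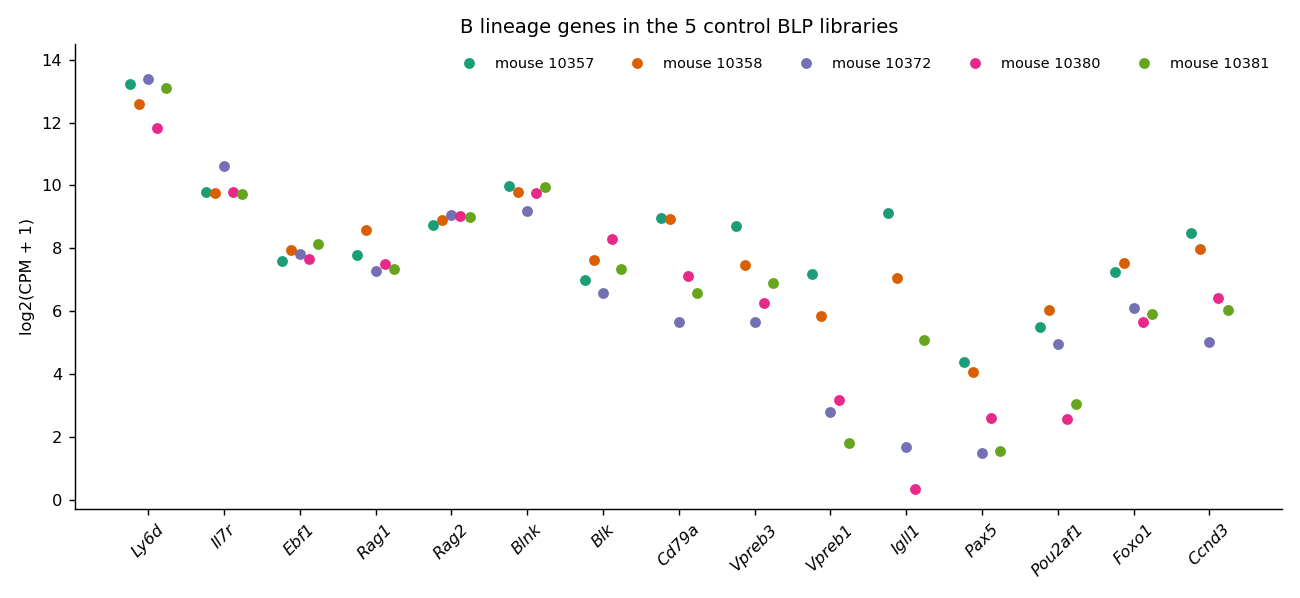
log2(CPM + 1) of 15 B lineage genes in the 5 control BLP libraries, 1 colour per mouse. Ebf1, Rag2 and Blnk lie close together, while Cd79a, Vpreb3, Vpreb1, Igll1, Pax5 and Ccnd3 spread, with mouse10357 and mouse10358 on top.

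E proteins such as E2A bind E-boxes, and the letters CAGGTG are one such box. The 250 bases before the RefSeq start of each gene (build GRCm38.p6) were searched for CAGGTG or its other-strand form CACCTG, and each window printed holds it once. Of 32851 RefSeq promoters 17.2% hold it. Among tested genes with a promoter it was found in 110 of 526 called higher (20.9%), 141 of 701 called lower (20.1%) and 1247 of 7460 not called (16.7%). Of the 16 tested early B genes with a promoter 8 (50%) hold it, and of the 18 B specification factors 3 (16.7%). Of the 20 stem cell regulators 5 (25%) hold it, and of the 23 stem cell surface and signalling genes 2 (8.7%). A match is a stretch of letters and not a shown binding site. Fcrla, a B cell Fc receptor-like gene, averaged 23.5 ± 12.2 CPM in BLPs and 0.116 ± 0.176 in HSCs (adjusted p = 0.00199). Below are windows of Rag1 and Fcrla, which were higher in BLPs, of Igll1, which was high in some BLP libraries and was not tested, and of Hlf, which was higher in HSCs and holds the box as well. They are written 5' to 3' on the gene's strand, with the box in capitals. The windows are Rag1 chr2:101649533-101649782 (minus strand), Fcrla chr1:170927584-170927833 (minus strand), Igll1 chr16:16863986-16864235 (minus strand) and Hlf chr11:90390918-90391167 (minus strand).
Rag1: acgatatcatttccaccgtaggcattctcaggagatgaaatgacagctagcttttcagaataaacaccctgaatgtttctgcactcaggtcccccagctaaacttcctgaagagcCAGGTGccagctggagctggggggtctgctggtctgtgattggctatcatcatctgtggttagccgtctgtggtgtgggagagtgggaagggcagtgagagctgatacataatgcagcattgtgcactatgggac
Fcrla: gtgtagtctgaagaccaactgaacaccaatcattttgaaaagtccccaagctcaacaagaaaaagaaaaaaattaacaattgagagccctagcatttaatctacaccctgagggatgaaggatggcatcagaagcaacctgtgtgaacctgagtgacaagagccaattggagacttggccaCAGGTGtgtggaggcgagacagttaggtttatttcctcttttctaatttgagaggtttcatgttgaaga
Igll1: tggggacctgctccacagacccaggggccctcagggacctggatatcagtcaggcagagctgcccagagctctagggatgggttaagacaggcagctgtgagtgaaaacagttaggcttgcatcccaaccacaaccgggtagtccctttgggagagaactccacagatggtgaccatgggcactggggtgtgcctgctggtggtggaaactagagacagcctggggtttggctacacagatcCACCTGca
Hlf: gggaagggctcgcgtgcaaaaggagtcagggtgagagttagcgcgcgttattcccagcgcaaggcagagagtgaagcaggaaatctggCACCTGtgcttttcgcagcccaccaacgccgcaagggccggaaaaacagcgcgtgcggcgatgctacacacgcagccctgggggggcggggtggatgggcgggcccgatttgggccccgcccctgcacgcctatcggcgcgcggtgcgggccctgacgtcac
The first base of the box lies at -135 from the start in Rag1, -69 in Fcrla, -8 in Igll1 and -162 in Hlf.

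Some genes of other lymphoid fates also rose in BLPs. Of 10 tested T lineage and Notch genes (of 24 listed) 6 rose (Cd247, Cd7, Hes1, Lck, Notch1 and Trbc2) and 1, Gata3, fell. Lck, a kinase of T cell receptor signalling, averaged 389.8 ± 151 CPM in BLPs and 31.9 ± 9.3 in HSCs (adjusted p = 2.9e-05). Genes of the T cell receptor complex differed among themselves: Cd3e had no count, while Cd247 and Trbc2 rose. Notch1 averaged 58.5 ± 21.5 CPM in BLPs and 8.24 ± 2.25 in HSCs (adjusted p = 0.00345), and its target Hes1 averaged 22.8 ± 12.6 CPM in BLPs and 1.13 ± 1.69 in HSCs (adjusted p = 0.013, and 0.0533 without mouse10357). Gata3, a factor of T cells and of stem cells, averaged 4.63 ± 6.24 CPM in BLPs and 75.4 ± 22.4 in HSCs (log2 fold change -5.14 ± 0.97, adjusted p = 0.00596).

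Of 17 tested dendritic cell genes (of 26 listed) 8 rose and 2 fell. The 8 include Flt3 and Ly6d, whose proteins the BLP gate requires, so the count was partly set by the gate. Irf8, Tcf4 and Ccr9 are also counted in the B specification or lymphoid priming lists. Without mouse10357 and mouse10358, 6 of 17 were called higher and none lower. Siglech and Cox6a2, both typical of plasmacytoid dendritic cells, averaged 267 ± 137 and 594 ± 198 CPM in BLPs and 1.04 ± 0.576 and 3.14 ± 0.894 in HSCs (adjusted p = 6.03e-06 and 3.75e-07). Siglech is also in the marker set of dendritic cells, whose sums are given above. Cd74 and H2-Aa, which serve antigen presentation on MHC class II, fell, with 76 ± 69.9 and 20.3 ± 22.4 CPM in BLPs and 334 ± 132 and 83.9 ± 31.6 in HSCs (adjusted p = 0.00658 and 0.0429). H2-Aa was not called in 4 of the 5 fits that left out a mouse (adjusted p of up to 0.116).

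Among genes with at least 20 CPM in BLPs whose libraries did not overlap, the 12 with the largest fitted rise were Kcng1, Slc18a1, Gfra1, Vpreb2, Slamf6, Colq, Blk, Cd79a, Slc37a2, Ubash3a, Icos and Mst1r. Besides B lineage genes these include a receptor for glial cell line-derived neurotrophic factors, a potassium channel subunit and a vesicular monoamine transporter. Gfra1, that receptor, had 58.1, 63.1, 47.1, 44.3 and 63.2 CPM in BLPs and 1 count in the HSC libraries, a ratio of BLP to HSC counts of 1513 (95% interval 271 to 59784). Slamf6, a receptor of the SLAM family, had 145, 124, 137, 27.2 and 95.5 CPM in BLPs and 3 counts in HSCs, a ratio of 971 (332 to 4711). Kcng1 and Slc18a1 had 0 counts in HSCs and were at least 263-fold and 187-fold higher in BLPs. Their place at the top depends on the prior count of the fit, and these bounds lie below the ratios of Gfra1 and Slamf6. Kcng1 was not called without mouse10357 and mouse10358.

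Several further groups were mixed. Of 31 tested cytokine receptors (of 38) 5 rose and 7 fell. Flt3 and Il7r, whose proteins the BLP gate requires, were among those that rose. Kit, Epor, Csf3r and Il15ra were among those that fell. Of 28 tested adhesion and homing genes (of 30) 10 rose, among them the integrin chain Itgal (log2 fold change 7.51 ± 1.13, adjusted p = 0.00169), and 6 fell, among them the junction protein Jam3 (-8.39 ± 0.89, adjusted p = 0.000208). Of 35 interferon response genes 8 fell, such as the guanylate-binding protein Gbp2 (-3.50 ± 0.68, adjusted p = 0.00694). The 2 that rose (5.71%, against 6.42% of all tested genes) were the antigen processing genes Psmb8 and Tap1. Of 21 tested immediate early genes 6 fell (28.6%, against 8.24% of all tested genes), led by Egr1 (-5.26 ± 0.95, adjusted p = 0.005). Btg2 alone rose (4.76%, against 6.42%). Of 11 tested Bcl2 family genes 2 rose, the survival gene Bcl2 (1.91 ± 0.28, adjusted p = 0.00157) and Bid. Without mouse10357 and mouse10358, 3 cytokine receptors, 3 interferon genes and 2 immediate early genes were called lower. Without mouse10372 and mouse10381, 3 immediate early genes were called lower and 1 Bcl2 family gene higher. Leaving out 1 mouse ended the calls of Il15ra (adjusted p = 0.0535 without mouse10358), Btg2 (up to 0.133) and Bid (up to 0.0976).

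Of 15 NuRD subunits 2 rose, Mta3 and Rbbp4. Mta3 had 782, 834, 535, 765 and 655 CPM in BLPs and 34.1, 16.4, 25.8, 61.2 and 23.8 in HSCs (log2 fold change 4.68 ± 0.32, adjusted p = 1.13e-05). Mbd3, the gene flanked by recombination sites in these mice, had 31.2 to 72.6 CPM in BLPs and 8.18 to 20.4 in HSCs, which do not overlap, and did not pass (log2 fold change 1.60 ± 0.51, adjusted p = 0.0666). Mbd3 passed without the mouse block (adjusted p = 0.0128), with DESeq2 (adjusted p = 0.00964) and with limma voom (adjusted p = 0.0474), and in the other alternatives its adjusted p was 0.05 to 0.309. Of 22 Polycomb genes Ezh2 rose and Cbx7 fell, and of 15 tested DNA methylation genes Uhrf1 rose. The Polycomb shares, 4.55% in each direction, lie below the background of 6.42% and 8.24%. The share called higher was 6.67% for DNA methylation genes, near the background, and 13.3% for NuRD subunits. Rbbp4, Ezh2, Cbx7 and Uhrf1 each lost the call when 1 mouse was left out, with adjusted p-values of up to 0.129, 0.056, 0.0833 and 0.0514.

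The control LMPP and ALP libraries of the same mice show where along the path the end values were reached. For every gene called beyond 2-fold, the position of a population was taken as the share of the distance from HSC to BLP it had covered. Distances were taken on log2(CPM + 1) averaged over the libraries of each population. This is a description of genes chosen for differing between the ends. Of 384 genes higher in BLPs, the median position was 48.9% at LMPP and 88.9% at ALP, and of 572 genes lower in BLPs it was 68.6% at LMPP and 92.8% at ALP. At LMPP, 391 of the 572 falling genes (68.4%) and 185 of the 384 rising genes (48.2%) lay nearer the BLP value.

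The groups kept different timetables. For the lists, positions are medians over the members called in the given direction at an adjusted p below 0.05, beyond 2-fold or not. Uncalled members are left out. The 17 called S phase genes stood at a median of 97.3% and the 11 called mitosis genes at 118% of the distance at LMPP already. Mki67 averaged 12 ± 10.4 CPM in HSCs, then 153 ± 71.5 (LMPP), 153 ± 58.5 (ALP) and 127 ± 65 (BLP). The 8 called imprinted genes were at 94.1% at LMPP, and the 12 falling megakaryocyte genes at 73.3%. The 19 falling stem cell regulators were at 61% at LMPP and 89.4% at ALP, with Hlf at 517 ± 111 CPM in HSCs, then 179 ± 63.5 (LMPP), 12 ± 7.51 (ALP) and 2.5 ± 2.41 (BLP).

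The 23 lymphoid priming genes called higher, among them Flt3, Il7r and Ly6d of the BLP gate, were at 66.8% at LMPP and 96.1% at ALP. Dntt averaged 19.8 ± 5.17 CPM in HSCs, then 1177 ± 403 (LMPP), 7018 ± 1871 (ALP) and 5256 ± 785 (BLP), so its ALP mean lay above both ends. The 9 B specification factors called higher were at 8.72% at LMPP and 51.8% at ALP, and the 17 early B genes called higher at 3.33% and 36.4%. Ebf1 averaged 1.22 ± 0.701 CPM in HSCs, then 0.11 ± 0.106 (LMPP), 26.3 ± 15.6 (ALP) and 228 ± 34.4 (BLP). Il7r averaged 2.49 ± 0.975, 3.1 ± 2.35, 594 ± 187 and 1005 ± 308 CPM in the same order, and its protein separates LMPPs from ALPs in the gates. Ly6d, whose protein separates ALPs from BLPs, averaged 20.1 ± 12.2 CPM in HSCs, then 7.54 ± 6.66 (LMPP), 85.5 ± 26.1 (ALP) and 7785 ± 2867 (BLP). Mpo peaked between the ends, with 2.06 ± 0.967 CPM in HSCs, then 506 ± 204 (LMPP), 490.1 ± 275 (ALP) and 153 ± 60.7 (BLP), and Foxo1 had its lowest mean there, at 51.8 ± 18.8, 8.54 ± 6.01, 37.8 ± 19.8 and 102 ± 60.6 CPM in that order.

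**Figure D5:**
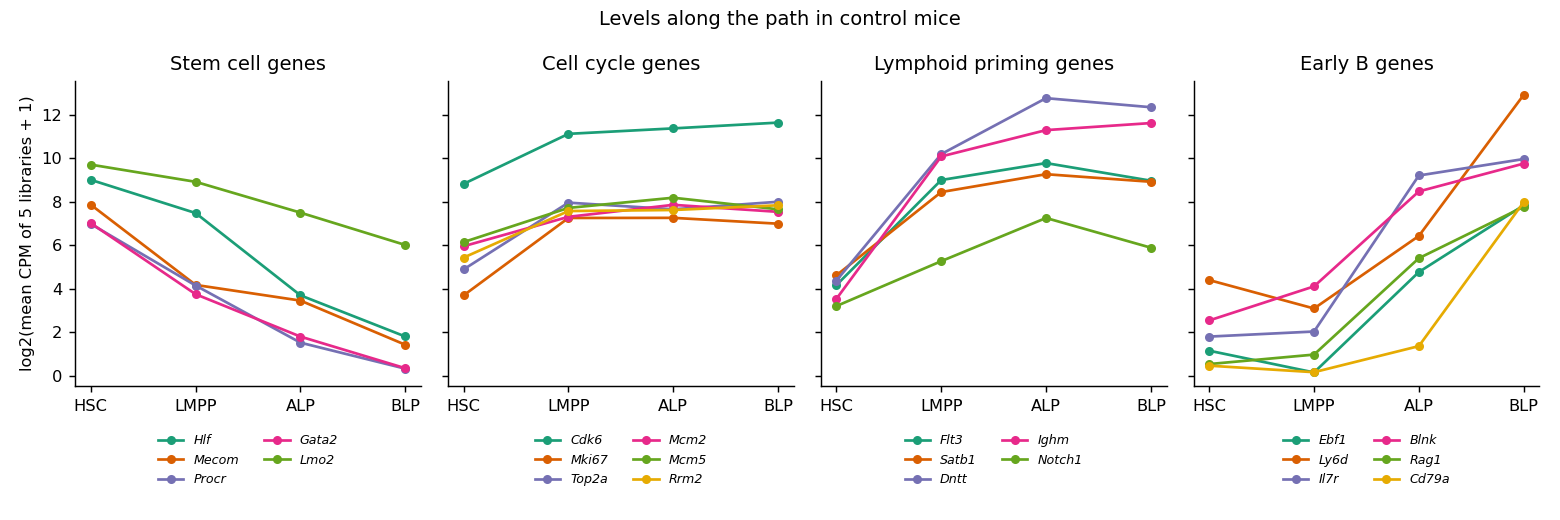
log2 of the mean CPM of 5 control libraries plus 1 in HSCs, LMPPs, ALPs and BLPs for 22 genes in 4 groups. Stem cell genes fall in steps, cell cycle genes reach their level at LMPP, lymphoid priming genes rise at LMPP and ALP, and early B genes rise at ALP and BLP.

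The same pair of populations was compared in mice without Mbd3. Mbd3 itself had 0, 5, 1, 4 and 0 counts in the Mbd3del BLP libraries and 0 or 1 in the Mbd3del HSC libraries, against 112 to 475 counts in control BLPs and 41 to 147 in control HSCs, so that every library matched its label. The test of the difference, which uses 10 Mbd3del libraries and the same 10 control libraries as above, called 1 of 12699 genes (0.00787%), and 672 had an unadjusted p below 0.05. DESeq2 called 78. The gene was Cd63 (chr10:128900989-128912822, plus strand), which encodes a tetraspanin of late endosomes. Its log2 fold change of BLPs over HSCs was -3.11 in Mbd3del mice and -5.96 in control mice, a difference of 2.86 ± 0.35 (adjusted p = 0.0121). Cd63 averaged 64.1 ± 26 CPM in Mbd3del BLPs and 7.56 ± 2.39 in control BLPs, and 606 ± 51.8 CPM in Mbd3del HSCs and 486 ± 44.4 in control HSCs (SD, n = 5 each). The 5 Mbd3del BLP libraries (40.8 to 102 CPM) all lay above the 5 control ones (5.35 to 11.4). Leaving out 1 mouse gave a difference of 2.69 to 3.04, and the adjusted p was above the threshold in 5 of 10 such fits, at 0.0721 without control mouse10357, 0.0713 without mouse10358, 0.0682 without mouse10372, 0.0552 without Mbd3del mouse10365 and 0.0527 without mouse10376.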

How the data were processed

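RNA was measured in 40 libraries of sorted mouse bone marrow cells, and the 10 control BLP and HSC libraries carry this comparison. Per the labels' protocols, cDNA was made by Smart-seq2 and libraries by Nextera XT, a procedure that does not mark strand. Per the submitters' processing notes the tools were STAR 2.5.2b and HTSeq 0.6.1p1 and the build was GRCm38. The deposited table holds raw read counts per feature, not normalized by the authors. Of its 128910 rows 49585 are genes, and the 79325 repeat region rows (0.28 to 1.188% of the counts of the 10 libraries) were left out of totals and tests. Coordinates and symbols come from GENCODE M21, which matched 49326 gene rows.

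Counts were tested with edgeR 4.0.16 (R 4.3.3) by the quasi-likelihood test with robust dispersion, TMM scaling, genes kept by filterByExpr (minimum count 10, minimum total 15) and a model of mouse plus population. The mouse block is used because the labels give both populations the same animal numbers. Same-mouse correlations of deviations from the population means were -0.106 to 0.0938, and 2 of 5 BLP libraries matched their own mouse best. P-values were adjusted by Benjamini-Hochberg over all tested genes, with 0.05 as the threshold, and changes beyond 2-fold were tested with glmTreat. The difference between genotypes was fitted with a mouse block on 20 libraries. CPM are counts divided by all gene counts of the library. Folds against 0 counts are bounds with a floor of 3 counts over the group, and intervals are 95% and cover counting error only, since PCR reads are not independent molecules. For single libraries the floor of 3 counts was 0.358 to 0.835 CPM in BLPs and 0.417 to 0.932 in HSCs. Library measures were compared by exact paired permutation over 32 arrangements (scipy 1.17.1, Python 3.11.15).

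On counts simulated from these libraries the fit called 5 of 50 genes with a log2 change of 1, 25 of 49 with 2, 35 of 44 with 3 and 36 of 49 with 4, and made 7 false calls among 10844 genes. The simulation changed far fewer genes than the data call and gave the mice no levels of their own. Its shares need not hold for the data. Genes named for the size of their change were, in each direction, the 12 with the largest fitted fold among called genes of at least 20 CPM whose libraries did not overlap and moved one way in all 5 mice, without unnamed gene models and receptor gene segments. Members of the 40 gene lists (823 of 824 symbols matched) were named as well, and a few members are not reported here by name. The comparison, the lists and the tests were chosen with earlier results of these data known. Alternatives were DESeq2 1.42.0, limma 3.58.1 (voom), other scaling and filters, thinning of all libraries to 3219784 counts, a joint fit of the 20 control libraries, fits without the block, and fits without single mice. Fits without mouse10372 and mouse10381 drop the animals whose sex went against the label. Fits without mouse10357 and mouse10358 were added after the data were seen. Nothing in the labels says more of the replicates than the animal. With the mouse block, a p-value rests on how the difference between BLPs and HSCs varied from mouse to mouse. Each mouse gave 1 library per population, so this variation also holds the noise of pools and libraries.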

Additional observations from a re-analysis of the deposited data

Results flagged for a closer look

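Of 260 groups of 5 libraries (named genes with a mean of at least 5 CPM, and library measures), 18 had 1 library far from the other 4. Far means a gap above 0.71 of the group's range, taken on log2(CPM + 1) for genes. Chance sets off about 1 in 20 such groups. The values printed are CPM unless stated, not the log2 values on which the gap was taken.

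Among BLPs, the library of mouse10372 stood apart for 6 lymphoid genes. It was highest for Il7r (1555, others 854 to 875), Irf4 (41.5, others 8.82 to 12.7) and Lck (655, others 289 to 355), and lowest for Ikzf1 (437, others 589 to 651), Blnk (586, others 869 to 1009) and Hes1 (3.85, others 19.5 to 35.3). The BLP library of mouse10380 was lowest for Slamf6 (27.2, others 95.5 to 145), Ighd (31.1, others 62.7 to 79.7) and Mycl (5.37, others 43.0 to 81.3). Emcn was lowest in the BLP library of mouse10358 (0.956, others 10.1 to 18.0), and Gbp2 in that of mouse10357 (1.38, others 16.5 to 31.7). The 10 most counted genes took 10.29% of the counts in the BLP library of mouse10381, and 7.13 to 8.04% in the other 4.

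Among HSCs, mouse10380 was highest for Ppbp (17.7, others 4.28 to 5.56). Mouse10381 was lowest for Abcg2 (254, others 560.0 to 595) and Cdkn1b (110.4, others 178 to 197). Pdk1 was lowest in mouse10380 (14.1, others 56.5 to 96.3), Jam3 in mouse10357 (37.3, others 49.0 to 50.9) and Btg2 in mouse10358 (1.18, others 14.4 to 32.7).

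Cd63 is the gene whose fold of BLPs over HSCs differed between Mbd3del and control mice, by 2.86 on the log2 scale (edgeR's quasi-likelihood test, adjusted p = 0.0121).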

How the results depend on the processing

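The 1642 genes called within mouse became 1075 to 1470 without 1 mouse (469 to 670 higher, 606 to 800 lower), 911 without mouse10372 and mouse10381 (413 higher, 498 lower), 623 without mouse10357 and mouse10358 (278 higher, 345 lower) and 2853 with DESeq2 (1210 higher, 1643 lower). Without the replicate block, which sets aside the pairing by mouse, 1755 were called. The 956 calls beyond 2-fold became 637 to 800 without 1 mouse (266 to 342 higher, 371 to 480 lower), 537 without mouse10372 and mouse10381 (238 higher, 299 lower), 412 without mouse10357 and mouse10358 (180 higher, 232 lower) and 1516 when an observed fold beyond 2 was added to the plain test (645 higher, 871 lower). No gene called both here and under any of the 16 alternatives changed direction. Of 154 called genes followed by name, 107 were called under every alternative that gave a value. Of 13 uncalled genes followed, 9 were called under at least 1 alternative. Ccnd3, which was not called, changed sign to -0.05 without mouse10357 and mouse10358, and the cause was not tested. The single gene whose fold differed between genotypes became 6 without the replicate block, 78 with DESeq2, 10 without a filter on low counts and 0 to 3 without 1 mouse. Without scaling beyond library totals the median log2 fold change of all genes was -0.11. On simulated counts 5 of 50 genes with a log2 change of 1 were called. Far fewer genes changed there than were called in the data, which makes the adjustment stricter. That share therefore does not tell how many changes of this size were missed here. Thinning all libraries to the lowest total left 1623 calls.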

Other observations

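Further gene lists held called genes, against 6.42% of all tested genes higher and 8.24% lower. Of 11 tested Hox genes and cofactors (of 25 listed) 5 fell in BLPs, among them Hoxa10, Hoxb5, Hoxb6 and Meis1, and none rose. Of 11 tested NK and innate lymphoid genes (of 19) 4 rose and 2 fell. Nkg7, a granule protein of cytotoxic cells, averaged 561 ± 89.1 CPM in BLPs and 35.8 ± 16.8 in HSCs (SD, n = 5 each), while the NK receptor Ncr1 had no count. Klrd1, which encodes CD94, averaged 59.5 ± 30.1 CPM in BLPs and 0.266 ± 0.18 in HSCs. Of 7 tested mature B and plasma cell genes (of 17) 4 rose, among them Sdc1, which encodes the plasma cell antigen CD138, with 104 ± 25.2 CPM in BLPs and 1.13 ± 1.34 in HSCs. Ighd, the delta heavy chain, averaged 63.1 ± 18.9 CPM in BLPs and 0.099 ± 0.14 in HSCs, and Ms4a1, which encodes CD20, had no count. Of 29 tested lysosome genes (of 30) 3 rose and 3 fell, 10.3% in each direction, with a median log2 fold change of 0.06, and 1 was called lower without mouse10372 and mouse10381. Of 8 Gimap genes 3 rose and none fell.

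A pair of genes not usually named in stem cells was found in every HSC library and was chosen here after its values were seen. Il4, which encodes the cytokine interleukin 4, had 0 CPM in 4 BLP libraries and 0.278 in the fifth, and 51.9, 64.7, 102, 38.5 and 25.3 CPM in HSCs. Lhcgr, the receptor for luteinizing hormone, had 0 CPM in 4 BLP libraries and 0.557 in the fifth, and 106, 93.6, 105, 82.4 and 86.4 CPM in HSCs. LMPPs averaged 0.06 ± 0.082 CPM of Il4 and 0.373 ± 0.834 of Lhcgr.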
